A study of Homo sapiens with 12 samples.

Results

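The COPII coat genes were examined in cells in which PTDSS1, an enzyme that makes phosphatidylserine, was inhibited. They comprise 10 genes, *SAR1A*, *SAR1B*, *SEC23A*, *SEC23B*, *SEC24A*, *SEC24B*, *SEC24C*, *SEC24D*, *SEC13* and *SEC31A*, which were taken by name, with earlier results of these data known. All 10 were listed in the table of 30984 genes for KYSE30 and in the table of 78691 genes for U138MG, and 30358 genes were listed in both. Poly-A RNA was sequenced from wild-type KYSE30, a line of esophageal squamous cell carcinoma, and from wild-type U138MG, which the labels give as a brain tumor line. In each line, 3 cultures were exposed to PTDSS1i, the small-molecule inhibitor, at 100 nM for 48 h, and 3 cultures were given DMSO, its vehicle, for the same time. The design therefore holds 4 groups and 12 libraries. Each line is a separate batch in the labels, so a difference between lines and a difference between batches cannot be told apart.

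COPII is the protein coat that buds transport vesicles from the endoplasmic reticulum (ER) and so starts the route of newly made secretory and membrane proteins to the Golgi. The GTPase SAR1 opens the process by inserting into the ER membrane. It recruits the inner coat of SEC23, which stimulates the GTPase of SAR1, and SEC24, which binds the sorting signals of cargo. SEC13 and SEC31 then form the outer cage that bends the membrane. SAR1, SEC23 and SEC24 exist as paralogs, and the SEC24 paralogs differ in the cargo signals they prefer. Genes of this coat are known targets of the unfolded protein response, the transcriptional program that follows ER stress.

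Libraries held between 18800932 and 26514658 counts, and no coat gene had fewer than 417 counts in any library. The labels were checked against lineage markers. In the DMSO libraries labelled U138MG, 8 of 10 markers of squamous epithelium reached 5 CPM (counts scaled to a common library total), among them *KRT5* at 1470 ± 83.4 CPM and *TP63* at 276 ± 7.36 CPM (SD, n = 3). *VIM*, a filament gene usual in glioblastoma lines, stood at 0.206 ± 0.066 CPM there, and *OLIG2* and *S100B* had 0 counts in all 6 libraries. Of 12 glial and mesenchymal markers, 6 did reach 5 CPM in DMSO. These were *SPARC* at 713, *CD44* at 406, *FN1* at 75.8, *COL1A1* at 54.5, *SOX2* at 38.9 and *CDH2* at 11.9 CPM. The growth protocol in the labels describes only KYSE30 and its medium, also for these samples. In their squamous markers and in *VIM*, *OLIG2* and *S100B* the libraries did not follow the marker pattern of a glial tumor line. Every U138MG value below belongs to the libraries labelled U138MG. Their summed squamous markers moved with treatment, from 7445 to 8268 CPM in DMSO and from 2896 to 3043 CPM in PTDSS1i, and their summed glial and mesenchymal markers from 1288 to 1315 CPM and from 1141 to 1179 CPM. Single markers did not all move alike. Mean *KRT15* went from 4861 to 458 CPM and *KRT5* from 1470 to 526 CPM, but *SFN* from 282 to 1064 CPM and *EPCAM* from 248 to 348 CPM. *SPARC* went from 713 to 348 CPM and *CD44* from 406 to 692 CPM. In KYSE30 the squamous sum was 1166 to 1198 CPM in DMSO and 1708 to 1716 CPM in PTDSS1i, and *KRT5* was near 0 at 0.061 ± 0.067 CPM (SD, n = 3). The glial and mesenchymal sum in KYSE30, over the 10 of 12 markers in its table, was 748 to 776 CPM and 1112 to 1139 CPM. Mean *CD44* went from 534 to 948 CPM there, but *FN1* from 98.3 to 37.4 CPM. Of its squamous markers, *SFN* went from 200 to 522 CPM, but *TP63* from 98.2 to 68.1 CPM. The part of these shifts in the results for the coat genes was not tested.

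Most of the coat rose with PTDSS1i. Summed over the 10 genes, normalized CPM in KYSE30 was 742, 695 and 732 in the DMSO libraries and 1032, 996 and 1036 in the PTDSS1i libraries. In U138MG the sum was 489, 489.5 and 480.3 in DMSO and 846, 870.2 and 863 in PTDSS1i. The treated libraries lay above all DMSO libraries in both lines. In the quasi-likelihood test of edgeR, with p adjusted by Benjamini-Hochberg over all genes tested, 8 of the 10 genes were higher in KYSE30 at an adjusted p under 0.05, against 30.1% of all 16389 genes tested. In U138MG 9 of the 10 were higher, against 33.9% of 17666 genes. None was lower by edgeR, at an unadjusted p under 0.05 or by DESeq2, against 32.0% and 33.6% of all genes lower by edgeR in KYSE30 and U138MG. All PTDSS1i libraries lay above all DMSO libraries for 9 coat genes in each line, which holds for 32.1% of all genes in KYSE30 and 35.5% in U138MG. The median log2 fold change of the 10 was 0.45 in KYSE30 and 0.87 in U138MG, where the median of all genes was -0.03 in both. None rose by more than 1 on the log2 scale in KYSE30, where 6.40% of all genes did. In U138MG 5 did, *SEC23B*, *SEC24A*, *SEC24D*, *SEC13* and *SEC31A*, against 8.19% of all genes. *SEC31A* sat on that limit.

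**Figure D1:**
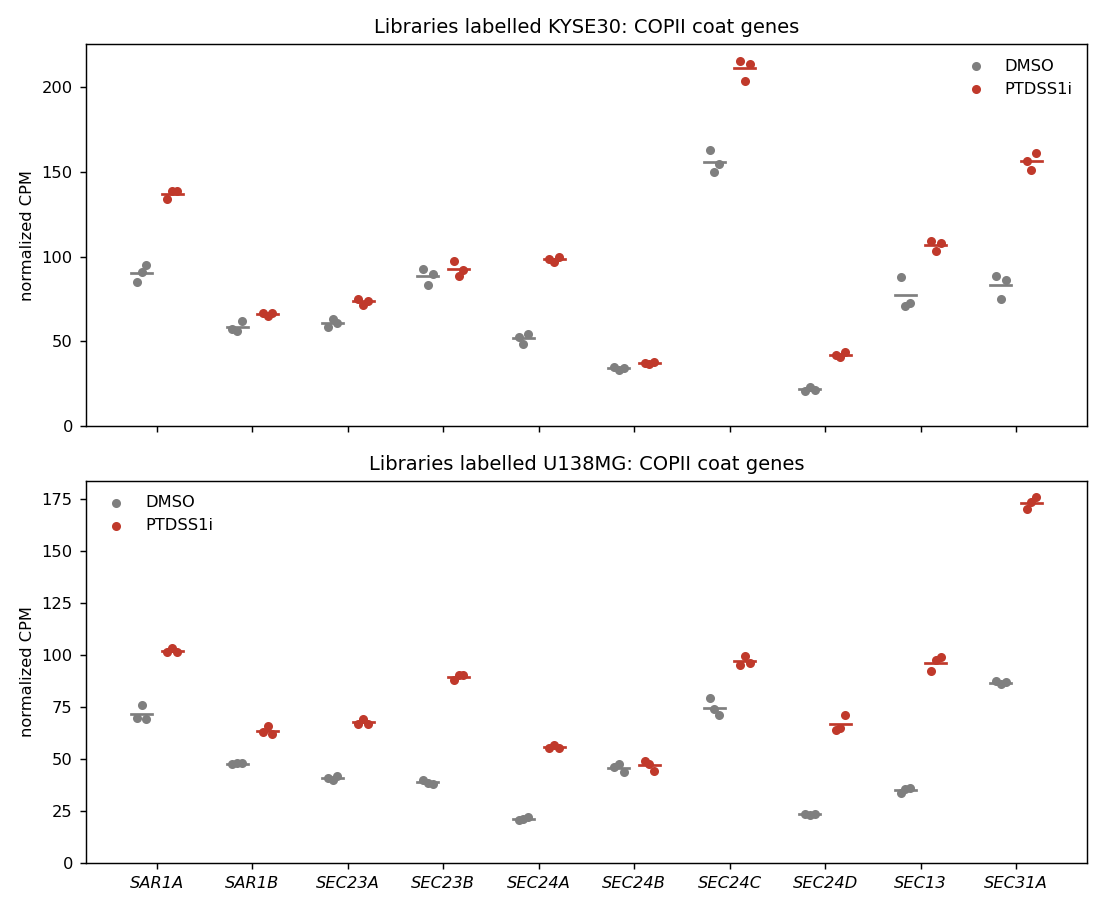
Normalized CPM (vertical axis, linear from 0) of the 10 COPII coat genes in each library, KYSE30 above and the libraries labelled U138MG below. Points are libraries, bars are means of 3, gray is DMSO and red is PTDSS1i. *SEC24B* in U138MG and *SEC23B* in KYSE30 are the genes whose groups overlap.

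The SEC24 family, the cargo adaptors, held the largest change in each line and the smallest in U138MG. *SEC24D* was at 20.6, 23.2 and 21.6 normalized CPM in the KYSE30 DMSO libraries and at 42.2, 40.7 and 43.9 in the PTDSS1i libraries. In U138MG it was at 23.8, 23.0 and 23.4 in DMSO and at 63.8, 65.2 and 71.2 in PTDSS1i. The groups stood apart in both lines, and these were the largest log2 fold changes of the coat, 0.96 (SE 0.07, edgeR adjusted p = 6.59e-11) in KYSE30 and 1.52 (SE 0.06, adjusted p = 1.95e-19) in U138MG. *SEC24D* and *SEC24C* form one branch of the family, and *SEC24A* and *SEC24B* the other.

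*SEC24A* followed a similar course although it belongs to the other branch. Its KYSE30 libraries were at 52.7, 48.8 and 54.4 normalized CPM in DMSO and at 98.4, 97.1 and 99.6 in PTDSS1i, a log2 fold change of 0.92 (SE 0.06, edgeR adjusted p = 4.55e-12). In U138MG they were at 20.8, 21.2 and 22.0 in DMSO and at 55.3, 56.9 and 55.1 in PTDSS1i, a log2 fold change of 1.38 (SE 0.06, edgeR adjusted p = 1.74e-18). The spread within each group was small against the gap between them.

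*SEC24B*, the closest paralog of *SEC24A*, did not pass the test in either line. Its levels in KYSE30 were 34.7, 33.3 and 34.4 normalized CPM in DMSO and 37.1, 36.7 and 38.1 in PTDSS1i. The groups did not overlap, but the log2 fold change of 0.13 (SE 0.06, 95% interval 0.0018 to 0.26) did not pass edgeR's test, with an adjusted p of 0.0728. It passed when both lines were fitted together, with an edgeR adjusted p of 0.0165. In U138MG the levels were 46.2, 47.4 and 43.9 in DMSO and 49.2, 47.6 and 44.2 in PTDSS1i, which overlap. The log2 fold change there was 0.04 (SE 0.05, 95% interval -0.07 to 0.15, edgeR adjusted p = 0.571), and its sign turned with scaling by library size only or by the upper quartile.

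*SEC24C*, the most abundant member of the family in DMSO, rose in both lines. It went from 156 ± 6.63 to 211 ± 6.60 normalized CPM in KYSE30 and from 74.8 ± 4.12 to 97.1 ± 2.30 in U138MG (SD, n = 3). The log2 fold changes were 0.44 (SE 0.05, edgeR adjusted p = 1.87e-07) and 0.38 (SE 0.04, adjusted p = 1.40e-08).

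Ratios of paralog counts within a library do not depend on how libraries are scaled. The log2 ratio of *SEC24A* to *SEC24B* was 0.60, 0.55 and 0.66 in the KYSE30 DMSO libraries and 1.41, 1.40 and 1.38 in the PTDSS1i libraries. In U138MG it went from -1.15, -1.16 and -0.99 to 0.17, 0.26 and 0.32, so that *SEC24A* had fewer counts than *SEC24B* in every DMSO library and more in every PTDSS1i library. The change of the log2 ratio was 0.79 ± 0.03 in KYSE30 and 1.35 ± 0.07 in U138MG (SE, 3 libraries a group). With 3 libraries against 3 an exact two-sided permutation test cannot give a p below 0.1, which these ratios reached, and the Benjamini-Hochberg value over 16 tests, 8 pairs in each line, was 0.114. The ratio of *SEC24C* to *SEC24D* fell by 0.52 and 1.13 on the log2 scale in KYSE30 and U138MG, and that of *SEC24B* to *SEC24D* by 0.83 and 1.47, both with exact p = 0.1. The ratio of *SEC24A* to *SEC24D* changed by -0.03 ± 0.09 in KYSE30 (SE, exact permutation p = 0.9), where the groups overlapped, and by -0.13 ± 0.06 in U138MG (SE, exact permutation p = 0.1).

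**Figure D2:**
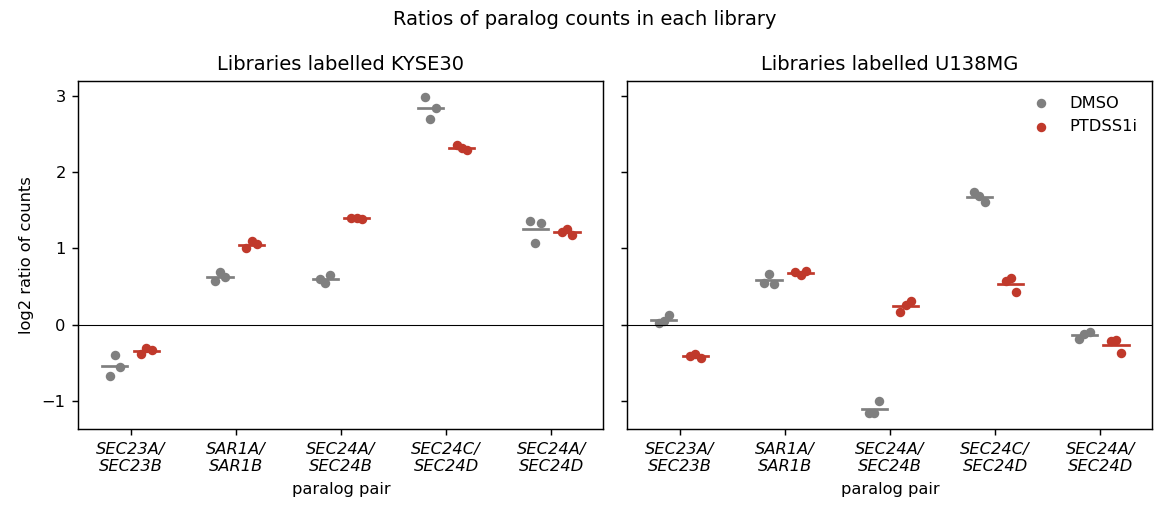
Log2 ratio of counts of 5 paralog pairs (vertical axis) in each library of KYSE30 (left) and of the libraries labelled U138MG (right). Points are libraries, bars are means of 3, gray is DMSO and red is PTDSS1i. *SEC24A*/*SEC24B* is higher in every PTDSS1i library, and *SEC23A*/*SEC23B* moves up in KYSE30 and down in U138MG.

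Per kilobase of annotated exon, *SEC24C* made up 64.6 ± 0.817% of the SEC24 family in the KYSE30 DMSO libraries and 61.2 ± 0.502% after PTDSS1i (SD, n = 3). Its share in U138MG was 49.8 ± 1.22% and 43.6 ± 0.504%. The share of *SEC24D* went from 4.88 ± 0.461% to 6.60 ± 0.129% in KYSE30 and from 8.39 ± 0.261% to 16.2 ± 1.07% in U138MG. The share of *SEC24B* went from 14.5 ± 0.189% to 11.1 ± 0.170% and from 31.3 ± 0.854% to 21.6 ± 1.12%. The family total rose from 45.1 ± 1.51 to 64.6 ± 1.62 normalized CPM per kilobase in KYSE30 and from 28.1 ± 0.924 to 41.7 ± 0.533 in U138MG. These shares depend on the length used. With coding length in its place, the KYSE30 share of *SEC24D* was 8.91 ± 0.812% in DMSO and 11.6 ± 0.216% in PTDSS1i, and each share named here moved in the same direction.

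The SEC23 paralogs, the GTPase-activating part of the inner coat, shifted against each other in opposite directions in the lines, by a narrow margin in KYSE30. *SEC23B* was at 92.9, 83.0 and 90.0 normalized CPM in the KYSE30 DMSO libraries and at 97.6, 88.5 and 92.4 in the PTDSS1i libraries, which overlap. The log2 fold change of 0.07 (SE 0.06, 95% interval -0.05 to 0.18) did not pass the edgeR test (adjusted p = 0.325), and its sign turned with scaling by library size only. In U138MG *SEC23B* went from 40.1, 38.6 and 38.1 to 88.2, 90.6 and 90.3, with no overlap and a log2 fold change of 1.21 (SE 0.05, edgeR adjusted p = 2.75e-19).

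*SEC23A* rose in both lines. It was at 58.7, 63.4 and 61.2 normalized CPM in KYSE30 DMSO and at 75.1, 71.7 and 73.8 in PTDSS1i, a log2 fold change of 0.27 (SE 0.05, edgeR adjusted p = 2.28e-04). In U138MG it went from 40.7, 39.8 and 41.8 to 66.8, 69.3 and 67.0, a log2 fold change of 0.73 (SE 0.05, edgeR adjusted p = 8.69e-14). The log2 ratio of *SEC23A* to *SEC23B* thus changed by 0.20 ± 0.08 in KYSE30 and by -0.47 ± 0.04 in U138MG (SE, exact permutation p = 0.1 in each), opposite in direction. In both lines all treated libraries lay on one side of all DMSO libraries. The margin was thin in KYSE30, where DMSO replicate 2 was at -0.390 and PTDSS1i replicate 1 at -0.377. Summed per kilobase of exon, the SEC23 pair was at 27.0 ± 0.905 and 29.4 ± 1.23 normalized CPM in KYSE30 and at 13.4 ± 0.236 and 28.0 ± 0.423 in U138MG (SD, n = 3, DMSO and PTDSS1i).

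The outer cage rose in both lines. *SEC31A*, whose product forms the rods of the cage, was at 88.8, 75.2 and 86.5 normalized CPM in KYSE30 DMSO and at 156, 151 and 161 in PTDSS1i. In U138MG it went from 87.5, 85.9 and 86.9 to 171, 174 and 176. Groups were well apart in both lines, with log2 fold changes of 0.90 (SE 0.06, edgeR adjusted p = 1.76e-11) and 1.00 (SE 0.04, adjusted p = 1.08e-19).

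*SEC13*, the partner of SEC31 in the cage and also a component of nuclear pores, was at 87.9, 70.9 and 72.4 normalized CPM in KYSE30 DMSO and at 109.5, 103 and 108 in PTDSS1i. The first DMSO library stood above the other two, and the groups still did not overlap, with a log2 fold change of 0.47 (SE 0.07, edgeR adjusted p = 8.81e-06). In U138MG *SEC13* went from 33.7, 35.7 and 36.0 to 92.5, 97.9 and 98.9, a log2 fold change of 1.46 (SE 0.05, edgeR adjusted p = 9.50e-21).

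Both SAR1 genes, which encode the initiating GTPase, rose. *SAR1A* went from 90.4 ± 5.07 to 137 ± 2.83 normalized CPM in KYSE30 and from 71.7 ± 3.68 to 102 ± 1.22 in U138MG (SD, n = 3). Its log2 fold changes were 0.60 (SE 0.05, edgeR adjusted p = 2.58e-09) and 0.51 (SE 0.04, adjusted p = 2.23e-11). *SAR1B*, the paralog that is mutated in chylomicron retention disease, went from 58.4 ± 2.98 to 66.1 ± 0.900 in KYSE30 and from 47.8 ± 0.213 to 63.6 ± 1.97 in U138MG. The log2 fold changes were 0.18 (SE 0.06, edgeR adjusted p = 0.00938) and 0.41 (SE 0.05, adjusted p = 1.25e-08). The KYSE30 call was lost with scaling by library size only, at 0.07 (adjusted p = 0.269). The log2 ratio of *SAR1A* to *SAR1B* changed by 0.42 ± 0.04 in KYSE30 (SE, exact permutation p = 0.1) and by 0.10 ± 0.04 in U138MG (SE, exact permutation p = 0.2), where the groups overlapped.

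Levels can be ranked between genes only per length. In the KYSE30 DMSO libraries the order by normalized CPM per kilobase of exon began with *SEC24C* at 29.2 ± 1.24 and *SEC23B* at 20.2 ± 1.16 and ended with *SEC24D* at 2.20 ± 0.133 (SD, n = 3). In that order *SEC13* and *SAR1A* overlapped, as did *SEC24A* with *SEC23A* and *SEC23A* with *SEC24B*, and the other neighbors did not. In the U138MG DMSO libraries the order also began with *SEC24C*, followed by *SAR1A* at 10.4 ± 0.532, and ended with *SEC24D* at 2.36 ± 0.0395, and *SEC23B* and *SEC24B* overlapped. After PTDSS1i *SEC24C* stayed first in KYSE30 at 39.5 ± 1.24, whereas in U138MG *SEC23B* led at 20.5 ± 0.302 and *SAR1B* came last at 5.80 ± 0.180. By coding length, *SAR1A* came first and *SAR1B* second in every group, so the order across families rests on the length taken.

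The change itself was compared between lines as the interaction of line and treatment, fitted by edgeR on 18405 genes. For 6 of the 10 coat genes the change was larger in U138MG at an adjusted p under 0.05, against 25.5% of all genes, and for none was it smaller by edgeR, at an unadjusted p under 0.05 or by DESeq2, against 24.4%. The largest difference was that of *SEC23B*, 1.10 on the log2 scale (SE 0.07, edgeR adjusted p = 8.56e-14), followed by *SEC13* at 0.95 (SE 0.09, adjusted p = 1.59e-09). *SEC24D*, *SEC23A* and *SEC24A* differed by 0.52, 0.42 and 0.42. *SAR1B* differed by 0.19 (SE 0.07, edgeR adjusted p = 0.0283), a call that was lost in 8 of the 12 fits that left out 1 library. For *SEC31A* the difference was 0.06 (95% interval -0.09 to 0.20), for *SEC24C* -0.10 (-0.24 to 0.04), for *SEC24B* -0.13 (-0.30 to 0.04) and for *SAR1A* -0.13 (-0.27 to 0.0096). For the last 4 genes the test did not separate the lines, which does not show that they changed alike. With upper-quartile scaling the change of *SEC24B*, *SEC24C* and *SAR1A* was called smaller in U138MG, by 0.24, 0.21 and 0.24, and *SAR1B* was not called. The number of all genes called smaller with that scaling was not counted.

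**Figure D3:**
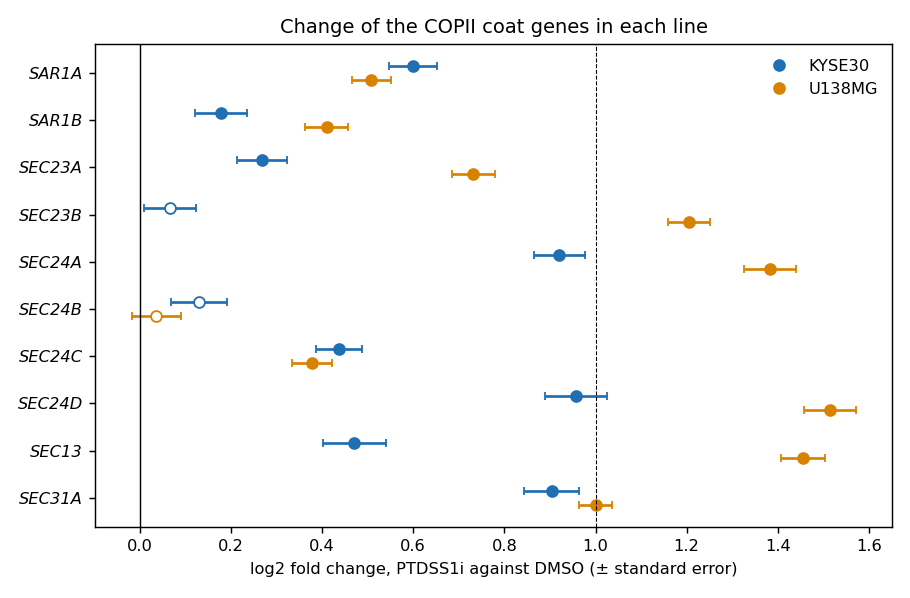
Log2 fold change of PTDSS1i against DMSO (horizontal axis, ± SE) of the 10 coat genes in KYSE30 (blue) and in the libraries labelled U138MG (orange), 3 libraries a group. Filled points have an edgeR adjusted p under 0.05, open points do not, and the dashed line marks 1. The lines lie farthest apart for *SEC23B*, at 0.07 and 1.21.

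Sequence upstream of the coat genes was searched because the unfolded protein response acts through short promoter elements. RefSeq promoters of GRCh38.p14, from 250 bases before to 50 after a start site, were held for 9 of the 10 genes in 14 windows, with none for *SEC24D*. The core of the unfolded protein response element, TGACGTG, which XBP1 and ATF6 can bind, was found on either strand in *SEC24A*, *SEC13* and *SEC23A*. It was in 4 of the 14 windows, with the same *SEC13* site counted in both *SEC13* windows, and in 1.97% of all 35116 promoters. The 3 matches, shown to place the element next to the genes that carry it, are given with their neighboring bases on the strand of the gene from 5′ to 3′, with the matching letters in capitals. In *SEC13* the match is on the other strand and reads CACGTCA.

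SEC24A: gtgagagtcggTGACGTGgcggcgaggcc

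SEC13: ctctggtctcgCACGTCActggaggatag

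SEC23A: tcccctcctctTGACGTGgcagaggcggc

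The *SEC24A* bases lie at chr5:134648595-134648623 on the plus strand, with the match beginning at position -179 from the start site. The *SEC13* bases lie at chr3:10321238-10321266 on the minus strand, with the match beginning at position -143 from the first of 2 listed start sites. The *SEC23A* bases lie at chr14:39103222-39103250 on the minus strand, and the match begins at position -4 and runs past the start site. All 250 upstream bases of *SEC24A* lie in annotated exons of *SAR1B*, and those of *SEC23A* in exons of *SEC23A* or SEC23A-AS1. The start sites used for *SEC23A* (chr14:39103235) and *SAR1B* (chr5:134632828) lie inside the annotated spans of these genes. The *SAR1B* window therefore did not reach the *SEC24A* match. In *SEC24A* and *SEC23A* the core overlaps a match on the other strand to CCACG, the shorter part of the ER stress element. CCACG was present in 13 of the 14 windows, against 38.1% of all promoters. Windows of *SEC31A* and of *SEC13* overlap in part, so the 14 are not independent. The whole ER stress element (CCAAT, a spacer, then CCACG), its second form ERSE-II, the cyclic AMP element TGACGTCA and the C/EBP-ATF element TGATGNAA were in none of the 14 windows, against 0.0769%, 0.0541%, 1.85% and 3.62% of all promoters. Genes with and without the core overlapped in their ranges of change, and a link between core and change was not tested. In KYSE30 *SEC24A*, *SEC13* and *SEC23A*, which hold it, rose by 0.92, 0.47 and 0.27 on the log2 scale. Without it in their windows, *SEC31A*, *SAR1A*, *SEC24C* and *SAR1B* rose by 0.90, 0.60, 0.44 and 0.18 there. *SEC24B* and *SEC23B*, also without it, were at 0.13 and 0.07 and did not pass the test. In U138MG the 3 genes with the core rose by 1.38, 1.46 and 0.73. Of those without it, *SEC23B*, *SEC31A*, *SAR1A*, *SAR1B* and *SEC24C* rose by 1.21, 1.00, 0.51, 0.41 and 0.38. *SEC24B* was at 0.04 there. A match describes letters in a window and does not show binding.

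Among 14 genes of ER stress transcription factors and their activators, 12 were tested in each line. Of these, 6 were higher and 3 lower in KYSE30, where 30.1% and 32.0% of all genes were, and 7 were higher and 4 lower in U138MG, where 33.9% and 33.6% of all genes were. The share of lower genes was thus near that of all genes. *DDIT3*, which encodes CHOP, rose by 2.03 (SE 0.10) and 3.37 (SE 0.08) on the log2 scale. *ATF4* rose by 1.06 (SE 0.05) and 0.96 (SE 0.04), and *ERN1*, the gene of the sensor IRE1, by 0.55 (SE 0.07) and 2.20 (SE 0.07). *CREB3L4*, a membrane-bound factor, fell by 0.31 in KYSE30 and by 0.97 in U138MG. Of the 2 factors named with the promoter core, *XBP1* rose by 1.01 (SE 0.05) in KYSE30 and 1.82 (SE 0.05) in U138MG. *ATF6* rose by 0.53 (SE 0.04) in U138MG and did not pass the test in KYSE30, at 0.05. *ATF6B* fell by 0.73 in U138MG and did not pass the test in KYSE30, at -0.04. *MBTPS2*, a protease that releases ATF6, fell by 0.36 in KYSE30 and did not pass in U138MG, at 0.08. *CREB3L2* fell by 0.38 in KYSE30 and rose by 0.94 in U138MG.

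Other genes of transport between ER and Golgi were described by lists. The COPI coat, which carries vesicles back to the ER, and the KDEL receptors, which retrieve escaped ER proteins, rose in both lines. Of 18 tested genes 15 were higher and 1 lower in each line. Of all genes, 30.1% were higher and 32.0% lower in KYSE30, and 33.9% higher and 33.6% lower in U138MG. The median log2 fold changes of the list were 0.38 in KYSE30 and 0.87 in U138MG. *KDELR3* rose by 1.01 (SE 0.11) and 2.32 (SE 0.09), and *ARF4*, a GTPase of the Golgi, by 0.90 (SE 0.05) and 2.14 (SE 0.04). *COPG2*, a COPI subunit, fell by 0.55 on the log2 scale in KYSE30 and was at -0.08 in U138MG without passing the test. *ARF5* fell by 0.20 in U138MG and was at 0.07 in KYSE30, also without passing.

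SNAREs and tethers, which dock and fuse vesicles, were higher for 14 of 21 genes in KYSE30, with 7 not called, and for 18 of 21 in U138MG, with 2 lower and medians of 0.28 and 0.48. Of all genes, 30.1% were higher in KYSE30, and 33.9% were higher and 33.6% lower in U138MG. *YIF1A*, a membrane protein of early Golgi transport, rose by 0.86 (SE 0.06) and 1.58 (SE 0.04), and the Golgi matrix gene *GOLGA2* by 0.73 (SE 0.05) and 1.13 (SE 0.04). *TRAPPC2* and *GORASP1* were the genes that fell, by 0.30 and 0.16 in U138MG, and in KYSE30 they were at 0.14 and 0.07 and did not pass the test.

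Of the cargo receptors, 9 of 22 genes (40.9%) were higher in KYSE30 and 5 lower, with a median of 0.11, not far from the 30.1% higher and 32.0% lower among all genes. In U138MG 17 of 21 were higher and 3 lower, with a median of 0.48, against 33.9% and 33.6% of all genes. In KYSE30 *TMED3* and *TMED9*, of the p24 family, rose by 0.38 (SE 0.05) and 0.36 (SE 0.05), and in U138MG by 0.74 and 0.76. In U138MG *ERGIC1* and *TMED5* rose by 0.92 (SE 0.04) and 0.89 (SE 0.05), and in KYSE30 by 0.28 and 0.30. *SCAP*, the escort of the sterol-regulated SREBP factors, fell by 0.25 in KYSE30 and by 0.32 in U138MG.

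Accessory factors of COPII sites had medians of 0.01 and 0.29, with 5 of 13 genes (38.5%) higher and 2 lower in KYSE30 and 9 (69.2%) higher and 2 lower in U138MG. The KYSE30 share of higher genes was close to the 30.1% of all genes, and the U138MG share compares with 33.9%. Of all genes, 32.0% were lower in KYSE30 and 33.6% in U138MG. *TFG* and *SEC16A*, which organize ER exit sites, rose by 0.59 (SE 0.05) and 0.37 (SE 0.05) in KYSE30 and by 0.36 and 0.79 in U138MG. *MIA2*, which takes part in the export of large cargo, and *SEC23IP*, a binding partner of SEC23, rose by 1.29 (SE 0.05) and 0.84 (SE 0.05) in U138MG, and in KYSE30 *MIA2* rose by 0.33 while *SEC23IP*, at 0.01, did not pass the test. *SEC31B*, the paralog of *SEC31A*, fell by 1.66 (SE 0.13) in U138MG and was at 0.06 in KYSE30 without passing. *KLHL12*, an adaptor of the ubiquitin ligase that modifies SEC31, fell by 0.28 in KYSE30 and by 0.23 in U138MG. *PDCD6*, whose calcium-binding product joins that ligase, fell by 0.27 in KYSE30 and rose by 0.27 in U138MG. Every change said to rise or fall had an edgeR adjusted p under 0.05, and the changes picked by the naming rule in their line kept it with scaling by library size only or by the upper quartile. The median of the accessory genes in KYSE30 turned to -0.09 and -0.0090 with these scalings, and with library size only 4 were higher and 5 lower. For cargo receptors in KYSE30, library size only gave 7 higher and 7 lower with a median of 0.0050. With that scaling 3932 of all 16389 genes tested in KYSE30 were higher and 6460 lower, and their median was -0.13.

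**Figure D4:**
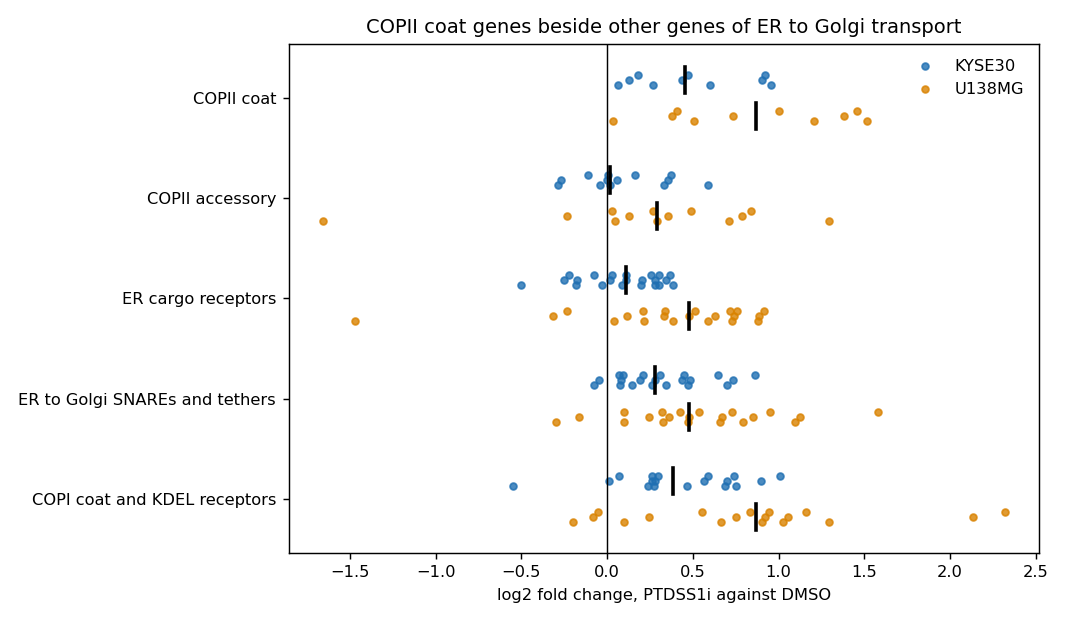
Log2 fold change of PTDSS1i against DMSO (horizontal axis) of each tested gene in 5 lists of ER to Golgi transport, in KYSE30 (blue) and in the libraries labelled U138MG (orange). Points are genes, spread vertically only for legibility, and black bars are medians. All COPII coat genes lie above 0, with medians of 0.45 and 0.87, and the COPI list has medians of 0.38 and 0.87.

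The genes whose pattern across libraries was nearest to that of a coat gene were sought among 10271 genes tested in both lines with at least 5 CPM. Nearness was the root-mean-square difference over the 12 libraries of log2 normalized CPM relative to the DMSO mean of the line. It includes the change with treatment, so like fold changes of the nearest genes follow from this choice. For *SEC24D*, the coat gene with the largest mean change, the nearest were *GOLGA3*, a Golgi matrix gene (0.0848), *COQ10B* (0.0861), of coenzyme Q metabolism, and *DNAJB9*, an ER co-chaperone (0.0878). Their log2 fold changes were 0.93, 1.08 and 0.92 in KYSE30 and 1.56, 1.56 and 1.57 in U138MG. For *SEC24B*, with the smallest mean change, the nearest were the splicing factor gene *SF3B1* (0.0374), *ARHGAP29* (0.0376) and *TAB2* (0.0377). They had changes of 0.16, 0.15 and 0.13 in KYSE30 and of 0.06, 0.07 and 0.0096 in U138MG. All genes in this measure share the depth and the scaling factor of each library.

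Several coat genes share exon sequence with a neighbor in the GENCODE annotation of GRCh38, and the library kit named in the labels does not mark strand. *SEC24A* (chromosome 5, 134648789 to 134727823, plus strand) and *SAR1B* (chromosome 5, 134601144 to 134649271, minus strand) overlap over 385 exon bases, which is 5.35% of the exons of *SEC24A* and 3.51% of those of *SAR1B*. *SEC24C* shares 42.9% of its exon bases with AC022400.8 on the other strand, which had 8 to 46 counts in KYSE30 and 367 to 549 in U138MG, where *SEC24C* had 1586 or more. *SEC31A* shares 5.27% with THAP9-AS1, which had 248 to 405 and 699 to 1140 counts, and at most 5.05% of the exons of *SEC23A*, *SEC24B* or *SEC13* are shared with an antisense neighbor, none of which passed 41 counts. Listed processed copies of coat genes held at most 3 counts in any library. The part of shared reads in these results was not tested.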

How the data were processed

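Poly-A RNA of 12 cultures was measured by RNA-seq, 3 in each of 4 groups, and the sample labels gave the line, the treatment and the replicate number. The design text calls the 3 samples of a group biological replicates. The authors deposited 1 table per line of read counts by gene, which are whole and not normalized. The submitters' processing notes name Trimmomatic, STAR, featureCounts and hg38, with no versions, and the annotation release and the use of strand are not given in the sources used here. Coat genes were found by gene name and joined between tables by Ensembl identifier without version.

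The tools were edgeR 4.0.16, DESeq2 1.42.0 and limma 3.58.1 under R 4.3.3, and figures were drawn in Python with pandas and matplotlib. Genes were kept by filterByExpr (minimum count 10, minimum total 15) with TMM factors as scaling. The robust quasi-likelihood test of edgeR compared PTDSS1i and DMSO libraries of a line, with Benjamini-Hochberg adjusted p over all genes tested, and the interaction of line and treatment compared the lines. Normalized CPM uses the TMM factors, and marker levels use library totals. Paralog ratios took counts plus 0.5 and an exact two-sided permutation test. Exon lengths and overlaps came from GENCODE, and the submitters may have used another annotation. Totals lay between 18800932 and 26514658 counts, 3 counts were at most 0.160 CPM, and such limits cover counting error only. Replicate pairs gave chi-square values of 2.29 to 7.44 per degree of freedom, above sampling noise. The edgeR test across genes, with TMM factors and the main filter, was tested on simulated data, and DESeq2 and the other alternatives were not.

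The members, gene lists, alternatives and naming rule were chosen with earlier results of these data known. All 10 coat genes were named. Of each other list and line, at most the 2 highest and the 2 lowest changes with an adjusted p under 0.05 and a mean of at least 5 CPM were eligible, and not all were printed. Such a gene is given with its value in the other line too. *XBP1* and *ATF6* were added outside this rule, because they are named with the promoter core. The 3 nearest genes were named for the coat genes with the largest and the smallest mean change. Alternatives were scaling by library size only, upper-quartile scaling, DESeq2, 2 other filters, a replicate block, each library left out, a fold-change threshold, both lines in one fit, a pseudocount of 5 and coding length. The scaling of the other transport lists was varied as well, a choice made after seeing the data.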

Additional observations from a re-analysis of the deposited data

Results flagged for a closer look

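The change after PTDSS1i differed between the lines, by edgeR's interaction test, for 6 coat genes, each with the larger rise in the libraries labelled U138MG. The differences of the log2 fold changes were 1.10 for *SEC23B*, 0.95 for *SEC13*, 0.52 for *SEC24D*, 0.42 for *SEC23A*, 0.42 for *SEC24A* and 0.19 for *SAR1B*. In each case the DMSO level was lower in U138MG than in KYSE30 except for *SEC24D*, which stood at 23.4 and 21.8 normalized CPM, levels that were scaled within separate tables. *SEC24C* (74.8 and 156) and *SAR1A* (71.7 and 90.4), whose change was not called different, were also lower in U138MG DMSO. *SEC31A* (86.8 and 83.5) and *SEC24B* (45.8 and 34.1), also not called, were higher there. A link between DMSO level and change was not tested. Line and batch cannot be told apart in this comparison. Among single values of 3 libraries a group no test for an outlying library was made.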

How the results depend on the processing

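With DESeq2, upper-quartile scaling, both other filters on low counts and each library left out, 8 coat genes were higher in KYSE30 and 9 in U138MG, with 0 lower, and with library size only 7 and 9 were higher. Both lines in one fit gave 9 and 9, where 5409 and 5681 of all 18405 genes were higher. With library size only 3932 of all 16389 genes were higher in KYSE30 and 4533 of 17666 in U138MG. Upper-quartile scaling gave 4693 and 4545. With a log2 fold change over 1 as well, 0 were higher in KYSE30 and 5 in U138MG, and 1 differed between lines by over 1. The number that differed between lines was 5 to 6 with a library left out and 8 with upper-quartile scaling. At these settings and at the threshold of 1, the number of all genes that differed between lines was not counted. These counts therefore have no share of all genes to be set against. Signs turned for *SEC23B* in KYSE30 with library size only (-0.038), for *SEC24B* in U138MG with library size only (-0.11) and upper quartile (-0.11), and for the *SEC31A* difference between lines with upper quartile (-0.053) and without KYSE30 DMSO replicate 1 (-0.0031). Leaving out a library gave -0.0031 to 0.12 for that difference and -0.12 to 0.018 for the change of the *SEC24A*/*SEC24D* log2 ratio in KYSE30, which was positive without DMSO replicate 1 (0.018) or 3 (0.0057). The *SAR1B* difference was 0.13 to 0.21 with a library left out and 0.08 with upper quartile, where it was not called. The cause was not tested. Library size only moved the median of all genes from -0.03 to -0.13 in KYSE30 and to -0.17 in U138MG, and the higher share of called genes from 48.5% to 37.8% and from 50.2% to 37.1%. Upper quartile gave -0.17 and 37.1% in U138MG. All 32 family shares moved by more than 1 SD with coding length.

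A replicate block gave 8 higher in KYSE30, 9 in U138MG and 6 that differed between lines. With it 5081 of all 16389 genes were higher in KYSE30 and 6019 of 17666 in U138MG, and all genes that differed were not counted. Same-numbered samples correlated at -0.0029 to 0.0754 in their deviations from group means, so the numbers were not taken as pairs. Depth limited little here, since each coat gene had 417 counts or more in every library, and 3 libraries a group limit the permutation tests to p = 0.1.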
